A study of Homo sapiens with 24 samples.

Results

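The SLC25 family comprises the mitochondrial carriers, and its mRNAs were examined here in a SLAM-seq experiment on HEK293T cells, a human embryonic kidney line. Members were the genes whose symbol in the deposited table was SLC25A followed by a number and whose T-to-C conversion was above 0 in all 4 libraries taken at the start of the chase. Of 19798 genes in the table, 48 rows with such a symbol were considered and 41 were members. The ADP/ATP carrier SLC25A6, which has 2 rows for its X and Y copies, and SLC25A2 were listed at 0 in all libraries, whereas SLC25A18, SLC25A41, SLC25A47 and SLC25A52 were above 0 in 3 to 7 of 24 libraries. The slope test kept 37 members, which were above 0 in at least 20 of the 24 libraries. SLC25A29, SLC25A31, SLC25A34 and SLC25A51 were not kept and have no test.

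Carriers of this family sit mostly in the mitochondrial inner membrane, where they exchange nucleotides, phosphate, carboxylates, amino acids and cofactors between the cytosol and the matrix. They are encoded in the nucleus, translated in the cytosol and inserted through the TIM22 translocase, so their supply depends on the stability of cytosolic mRNAs. The CCR4-NOT complex shortens poly(A) tails and thereby starts the decay of most mRNAs. CNOT3 is the subunit of this complex that can enter the vacant E-site of a ribosome.

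Cells received guide RNAs against CNOT3 (sgCNOT3) or non-targeting guides (sgNT), were selected with puromycin, and were fed 75 µM 4-thiouridine for 24 h, with new medium every 3 h, before a chase with 10 mM UTP. RNA was collected after 0, 1, 2, 4, 8 and 12 h, with 2 libraries for each of the 12 groups of genotype and time. Each genotype is labelled with a pair of guides that are not assigned to libraries, and nothing says that the replicates came from separate cultures, so p-values rest on differences among libraries alone, possibly technical ones. Conversion is the T-to-C ratio that the table gives for the 3' end reads of a gene, and whether it is taken per read or per T position is not given in the sources used here. It falls as RNA made before the chase decays or is diluted by new RNA. A ratio does not measure how much mRNA is present.

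The depth behind each value is unknown, since the table holds no read counts, and an exact 0 is therefore given as listed at 0. The median conversion of the 37 tested members started at 34.2% to 38.2% in sgNT and 28.1% to 33.3% in sgCNOT3 (0 h), and ended at 8.301% to 9.41% and at 9.66% to 10.2% (12 h). Replicates of the 37 tested members correlated with Spearman rho of 0.51 to 0.79 in 9 groups (across genes, which are not independent replicates), but with 0.16, 0.02 and 0.38 in sgCNOT3 at 2, 4 and 8 h. CNOT3 itself showed 34.7% and 31.5% (sgNT) and 62.1% and 81.0% (sgCNOT3) at the start of the chase, which shows labelled CNOT3 RNA in both genotypes and does not check the knockout. Whether the labelled cell line shows its markers cannot be read from a conversion ratio.

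In all, 6 carrier mRNAs had a higher slope of conversion over the chase in sgCNOT3 than in sgNT (called slower), and 1 had a lower slope (called faster). The slower mRNAs encode carriers with different substrates, namely SLC25A25 for ATP-Mg and phosphate, the iron carrier SLC25A28, SLC25A44 for branched-chain amino acids, the ADP/ATP carrier SLC25A4, SLC25A36 for pyrimidine nucleotides, and the peroxisomal carrier SLC25A17. The faster mRNA was SLC25A48, a choline carrier. These words name a slope difference, since SLC25A25 and SLC25A4 had slopes above 0 in sgCNOT3 (0.046 and 0.024 per h). SLC25A48 had a slope above 0 in sgNT (0.051 per h). The 6 slower members of 37 (16.2%) compare with 21.7% of all 10731 genes tested, so the share of the family was near the background, and the 1 faster member (2.70%) compares with 0.345% of all genes. These calls come from a limma test of the slope of log2 conversion on chase time, with p-values adjusted over all genes tested, and positive values stand for a curve that is less steep in sgCNOT3 or that rises there. With each library centred on its median, which removed a slope difference of 0.066 per h shared by all genes, 2 members were slower and 5 faster. Of the 6 slower members, 3 were past the test without replicate 1 (SLC25A25, SLC25A28 and SLC25A44), 1 without replicate 2 (SLC25A25) and 0 over 0 to 4 h.

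The slope differences of the 37 members ranged from -0.37 to 0.37 per h on the log2 scale. Their median was 0.023, with 0.015 from either replicate taken alone, and the median of all genes was 0.058. It was above 0 in 25 members (67.6%) and in 81.7% of all genes, although the member median was -0.043 after centring and -0.037 when only 0 to 4 h were used. The plot of slope differences shows that the members without a call fall on both sides of 0, and 12 of these 30 have a standard error above that of every slower member.

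**Figure D1:**
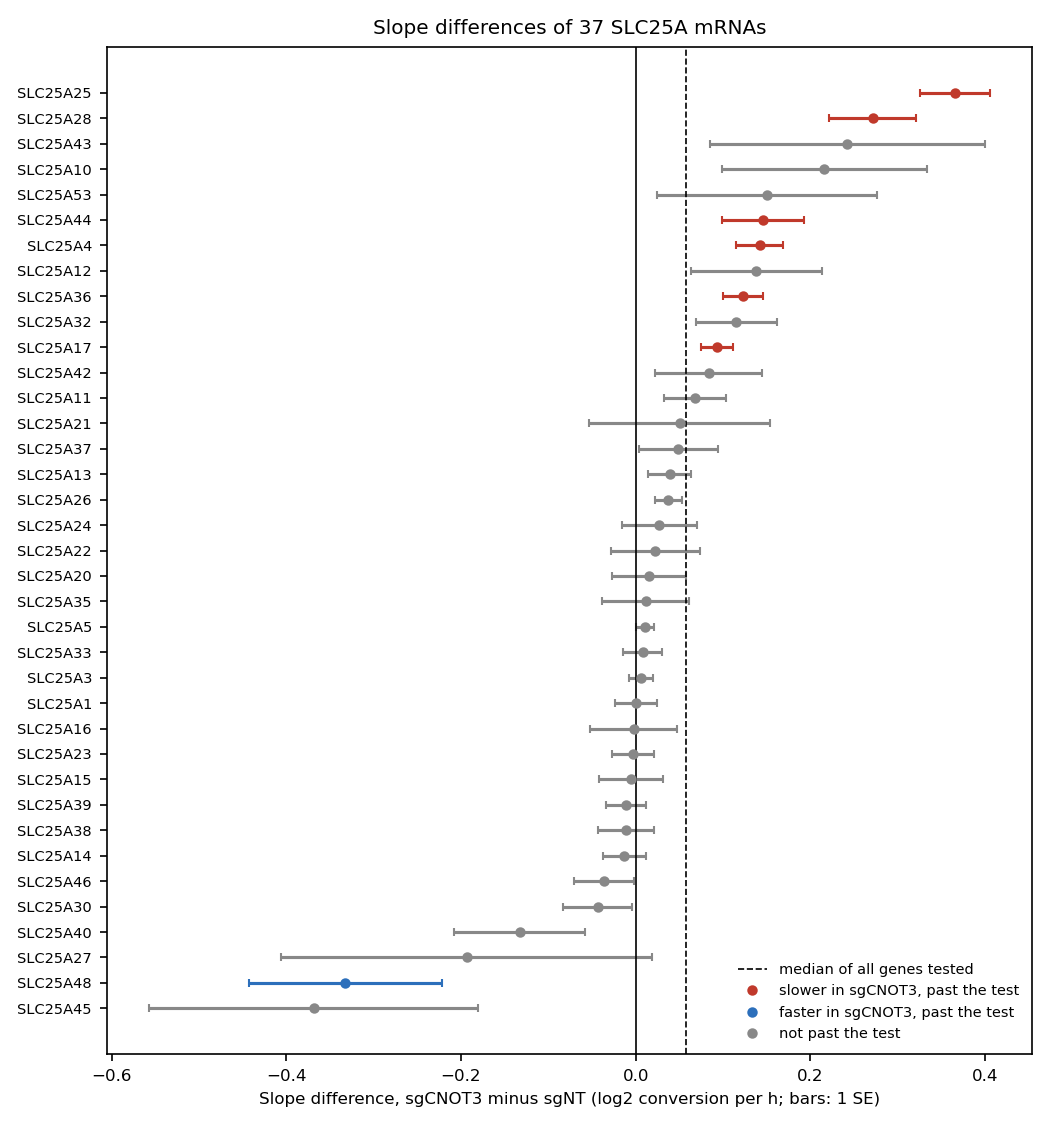
Slope difference of log2 conversion per h, sgCNOT3 minus sgNT, for the 37 tested SLC25A mRNAs in order of size, with bars of 1 standard error from limma over 24 libraries. The 6 slower members lie above 0, from SLC25A17 at 0.093 to SLC25A25 at 0.37, and SLC25A48 lies below at -0.33. The dashed line is the median of all genes at 0.058.

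Among the ADP/ATP carriers, which bring ATP out of mitochondria in exchange for ADP, SLC25A4 was slower in sgCNOT3 and SLC25A5 was not past the slope test. SLC25A4 (ENSG00000151729.11) lies on chromosome 4 at 185143266 to 185150382 on the plus strand. The SLC25A4 conversion in replicates 1 and 2 of sgNT was 55.3% and 53.2% (0 h), 55.5% and 48.7% (1 h), 46.1% and 44% (2 h), 47.8% and 39.2% (4 h), 36.2% and 34.5% (8 h) and 19.9% and 17.1% (12 h). Values for SLC25A4 in sgCNOT3 were 17.7% and 31.5% (0 h), 27.5% and 17.6% (1 h), 39.3% and 34.2% (2 h), 26.6% and 25.2% (4 h), 30.98% and 34.8% (8 h) and 25.6% and 33.2% (12 h). The sgCNOT3 values lay below both sgNT libraries at 0, 1, 2 and 4 h and above them at 12 h, and they showed no fall over the chase. The slope was -0.12 per h in sgNT and 0.024 in sgCNOT3, a difference of 0.14 ± 0.03 (SE; adjusted p = 0.00059), with 0.13 and 0.16 in the 2 replicates. Over 0 to 8 h it was not past the test. The difference was not past the test with centred libraries, and its adjusted p was between 0.00016 and 0.57 over the alternatives.

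SLC25A5 (ENSG00000005022.6) lies on chromosome X at 119468422 to 119471396 on the plus strand. The SLC25A5 conversion in replicates 1 and 2 of sgNT was 38.2% and 35.97% (0 h), 37.8% and 37.3% (1 h), 34.4% and 33.3% (2 h), 35.7% and 33.6% (4 h), 28.5% and 29.3% (8 h) and 26.3% and 24.5% (12 h). Values for SLC25A5 in sgCNOT3 were 23.3% and 25.2% (0 h), 26.1% and 27.5% (1 h), 22.1% and 24.9% (2 h), 21.7% and 22.8% (4 h), 23.5% and 21.5% (8 h) and 16.8% and 19.3% (12 h). SLC25A5, the ADP/ATP carrier of proliferating cells, stood lower in sgCNOT3 at every chase time, with no overlap between genotypes at any of the 6 times. The curves ran side by side, with slopes of -0.047 and -0.036 per h and a difference of 0.011 ± 0.010 (SE; adjusted p = 0.50). On the log2 scale the genotype difference was -0.61 ± 0.09 at 0 h and -0.49 ± 0.09 at 12 h (adjusted p = 0.0015 and 0.0011). Reads that match more than 1 gene could be split between the ADP/ATP carriers and their pseudogene copies, and how they were counted is not given in the sources used here.

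SLC25A31 is the ADP/ATP carrier of the testis, and it was above 0 in 14 of 24 libraries. The SLC25A31 conversion in replicates 1 and 2 of sgNT was 83.3% and 100% (0 h), 50% and 100% (1 h), 0% and 0% (2 h), 0% and 77.8% (4 h), 0% and 16.7% (8 h) and 0% and 0% (12 h). Values for SLC25A31 in sgCNOT3 were 100% and 100% (0 h), 87.5% and 100% (1 h), 0% and 0% (2 h), 0% and 0% (4 h), 20% and 13.6% (8 h) and 20% and 11.1% (12 h). The values of 100% and 0 stand side by side in both genotypes, and no slope was tested.

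The phosphate carrier SLC25A3, which supplies the matrix with phosphate for ATP synthesis, stood lower in sgCNOT3 at the start and the end of the chase, as did SLC25A5. SLC25A3 (ENSG00000075415.15) lies on chromosome 12 at 98593591 to 98606379 on the plus strand. The SLC25A3 conversion in replicates 1 and 2 of sgNT was 36.4% and 34.2% (0 h), 35.3% and 35.6% (1 h), 27.3% and 28.6% (2 h), 32.1% and 28.8% (4 h), 22.8% and 23.3% (8 h) and 18.4% and 19.2% (12 h). Values for SLC25A3 in sgCNOT3 were 27.5% and 26.9% (0 h), 29.2% and 30.2% (1 h), 22.6% and 24.4% (2 h), 21.2% and 21.9% (4 h), 21.1% and 23.1% (8 h) and 14.01% and 15.6% (12 h). The sgCNOT3 values were lower without overlap at 0, 1, 2, 4 and 12 h, while the genotypes overlapped at 8 h. The log2 difference was -0.37 ± 0.09 at 0 h (adjusted p = 0.029) and -0.34 ± 0.09 at 12 h (adjusted p = 0.011), and the slope difference was 0.0061 ± 0.014 (SE; adjusted p = 0.79).

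SLC25A25 had the largest slope difference of the family, above 98.6% of all genes tested. It belongs to the calcium-regulated ATP-Mg/phosphate carriers, which set the adenine nucleotide content of the matrix. SLC25A25 (ENSG00000148339.13) lies on chromosome 9 at 128068201 to 128109245 on the plus strand. The SLC25A25 conversion in replicates 1 and 2 of sgNT was 35.9% and 31.6% (0 h), 34.3% and 27.3% (1 h), 24.6% and 32.8% (2 h), 19.4% and 17.2% (4 h), 3.67% and 9.49% (8 h) and 1.85% and 3.06% (12 h). Values for SLC25A25 in sgCNOT3 were 15.95% and 16.9% (0 h), 9.59% and 20.7% (1 h), 17.3% and 19.5% (2 h), 27.9% and 25.1% (4 h), 32.9% and 28.95% (8 h) and 16.6% and 22.9% (12 h). The mean of the sgNT libraries fell at every step, although replicate 2 rose between 1 h and 2 h, whereas in sgCNOT3 it started below both sgNT libraries, was highest at 8 h and exceeded both sgNT libraries at 4, 8 and 12 h. The slope was -0.32 per h in sgNT and 0.046 in sgCNOT3, a difference of 0.37 ± 0.04 (SE; adjusted p = 4.3e-06), and it was 0.42 and 0.31 in the 2 replicates. It was past the test under all alternatives except the 0 to 4 h window and the test on 1 slope per replicate number.

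The other ATP-Mg/phosphate carriers, SLC25A23 and SLC25A24, were not past the slope test. The SLC25A23 conversion in replicates 1 and 2 of sgNT was 16% and 14.2% (0 h), 15.5% and 14.4% (1 h), 11.3% and 10.7% (2 h), 14.4% and 11.8% (4 h), 13.4% and 11.6% (8 h) and 9.41% and 8.405% (12 h). Values for SLC25A23 in sgCNOT3 were 26.8% and 29.6% (0 h), 29.6% and 27.01% (1 h), 16.4% and 21.3% (2 h), 18.4% and 19.4% (4 h), 18.3% and 19.04% (8 h) and 14.5% and 20.6% (12 h). SLC25A23 stood higher in sgCNOT3 at all 6 chase times without overlap, the opposite of SLC25A5. SLC25A1 and SLC25A26 also stood higher at all 6 times without overlap. For SLC25A23 the log2 difference was 0.88 ± 0.20 at 0 h (adjusted p = 0.017) and 0.93 ± 0.20 at 12 h (adjusted p = 0.0026), with a slope difference of -0.0026 ± 0.024. SLC25A24 had a slope difference of 0.027 (adjusted p = 0.69).

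**Figure D2:**
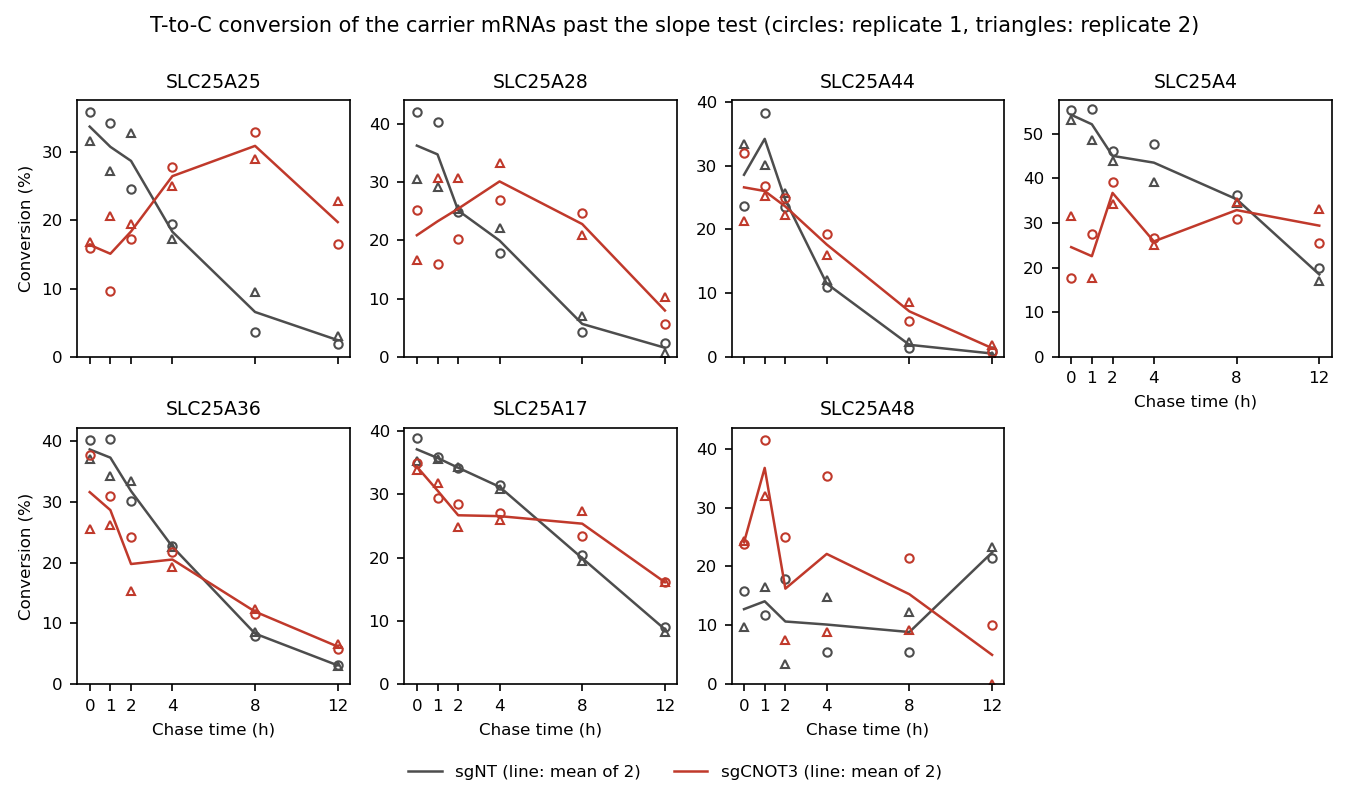
T-to-C conversion in percent against chase time in h for the 6 slower members and SLC25A48. Symbols are single libraries (circles replicate 1, triangles replicate 2), lines are means of 2 libraries, grey is sgNT and red sgCNOT3, and each panel has its own scale from 0. SLC25A25 reached 32.9% and 28.95% at 8 h in sgCNOT3 against 3.67% and 9.49% in sgNT.

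Of the 9 tested carriers of nucleotides, cofactors and acylcarnitine, 2 were slower (SLC25A36 and SLC25A17), beside 21.7% of all genes tested. SLC25A36 exchanges pyrimidine nucleotides, as does its paralog SLC25A33. SLC25A36 (ENSG00000114120.14) lies on chromosome 3 at 140941830 to 140980995 on the plus strand. The SLC25A36 conversion in replicates 1 and 2 of sgNT was 40.1% and 37% (0 h), 40.3% and 34.2% (1 h), 30.1% and 33.3% (2 h), 22.7% and 22.5% (4 h), 7.98% and 8.67% (8 h) and 3.199% and 3.02% (12 h). Values for SLC25A36 in sgCNOT3 were 37.6% and 25.5% (0 h), 30.99% and 26.2% (1 h), 24.2% and 15.3% (2 h), 21.7% and 19.3% (4 h), 11.5% and 12.4% (8 h) and 5.73% and 6.66% (12 h). Both genotypes fell steeply, and the sgCNOT3 libraries were below both sgNT libraries at 1, 2 and 4 h and above them at 8 and 12 h. The slope difference was 0.12 ± 0.02 (SE; adjusted p = 0.00066), 0.094 and 0.15 by replicate. It was not past the test once libraries were centred or over 0 to 8 h. SLC25A33 had slopes of -0.15 and -0.14 per h, a difference of 0.0079 (adjusted p = 0.83).

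SLC25A17 lies in the peroxisomal membrane and carries coenzyme A, FAD and related nucleotides. SLC25A17 (ENSG00000100372.15) lies on chromosome 22 at 40769630 to 40819399 on the minus strand. The SLC25A17 conversion in replicates 1 and 2 of sgNT was 38.97% and 35.2% (0 h), 35.9% and 35.6% (1 h), 34.1% and 34.3% (2 h), 31.5% and 30.9% (4 h), 20.4% and 19.5% (8 h) and 9.07% and 8.301% (12 h). Values for SLC25A17 in sgCNOT3 were 34.9% and 33.8% (0 h), 29.4% and 31.8% (1 h), 28.5% and 24.9% (2 h), 27.1% and 26.01% (4 h), 23.4% and 27.4% (8 h) and 16.1% and 16.1% (12 h). The sgCNOT3 libraries were below both sgNT libraries from 0 to 4 h and above them at 8 and 12 h. The difference of slopes was 0.093 ± 0.018 (SE; adjusted p = 0.00099), with 0.085 and 0.10 in the replicates. It was no longer past the test with centred libraries, and it was -0.028 over 0 to 4 h.

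The remaining tested members of this group had no slope call. SLC25A32, which carries folate, had a slope difference of 0.11 ± 0.05 (adjusted p = 0.080), which passed without the second sgNT library at 8 h (adjusted p = 0.027) or the second sgCNOT3 library at 12 h (adjusted p = 0.050), and was -0.21 over 0 to 4 h. At 12 h its conversion was 1.70% and 1.89% in the sgNT libraries and 6.96% and 4.95% in the sgCNOT3 libraries, a log2 difference of 1.54 ± 0.30 (adjusted p = 0.0013). SLC25A26, the carrier of S-adenosylmethionine, was flatter, with a slope difference of 0.038 ± 0.015 (adjusted p = 0.084). SLC25A26 was already higher in sgCNOT3 at 0 h, at 24.9% and 23.6% for sgNT and 31.1% and 25.5% for sgCNOT3. The 12 h values were 14.5% and 15.2% for sgNT and 23.3% and 20.7% for sgCNOT3. The slope differences of SLC25A20, SLC25A39, SLC25A40 and SLC25A42, carriers of acylcarnitine, glutathione (SLC25A39 and its paralog SLC25A40) and coenzyme A, were 0.015, -0.011, -0.13 and 0.084.

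Of the mitoferrins, which bring iron into the matrix for heme and iron-sulfur clusters, SLC25A28 was slower and SLC25A37 was not past the test. SLC25A28 (ENSG00000155287.12) lies on chromosome 10 at 99610519 to 99622793 on the minus strand. The SLC25A28 conversion in replicates 1 and 2 of sgNT was 41.97% and 30.6% (0 h), 40.3% and 29.2% (1 h), 24.9% and 25.3% (2 h), 17.9% and 22.1% (4 h), 4.298% and 7.03% (8 h) and 2.43% and 0.717% (12 h). Values for SLC25A28 in sgCNOT3 were 25.1% and 16.6% (0 h), 15.9% and 30.6% (1 h), 20.2% and 30.7% (2 h), 26.9% and 33.4% (4 h), 24.6% and 20.97% (8 h) and 5.72% and 10.2% (12 h). The genotypes were apart at 0 h with sgCNOT3 lower, overlapped at 1 and 2 h, and were apart with sgCNOT3 higher at 4, 8 and 12 h. The slope was -0.38 per h in sgNT and -0.10 in sgCNOT3, a difference of 0.27 ± 0.05 (SE; adjusted p = 0.00043), with 0.24 and 0.31 by replicate. It was not past the test without replicate 2 (adjusted p = 0.069), over 0 to 4 h (0.13) or with 1 slope per replicate number (0.10). SLC25A37, the mitoferrin of erythroid cells, had a slope difference of 0.049 ± 0.045 (adjusted p = 0.47).

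Of the 6 tested amino acid carriers, 1 was slower (SLC25A44), beside 21.7% of all genes tested. SLC25A44 imports branched-chain amino acids. The SLC25A44 conversion in replicates 1 and 2 of sgNT was 23.7% and 33.4% (0 h), 38.3% and 30.1% (1 h), 23.5% and 25.7% (2 h), 10.95% and 12.04% (4 h), 1.39% and 2.405% (8 h) and 0.905% and 0.159% (12 h). Values for SLC25A44 in sgCNOT3 were 31.9% and 21.3% (0 h), 26.8% and 25.2% (1 h), 24.9% and 22.3% (2 h), 19.3% and 15.9% (4 h), 5.68% and 8.61% (8 h) and 0.835% and 1.92% (12 h). Both genotypes fell to below 2% at 12 h, and the sgCNOT3 libraries were below both sgNT libraries at 1 h and above them at 4 and 8 h, while the genotypes overlapped at 12 h. The slope difference was 0.15 ± 0.05 (SE; adjusted p = 0.030), with 0.046 and 0.25 in the replicates. It was not past the test without the first sgNT library at 1 h (adjusted p = 0.051), the second sgNT library at 12 h (0.12), the second sgCNOT3 library at 0 h (0.063) or the second at 12 h (0.064), nor without replicate 2 (0.78), with centred libraries (0.30), with the larger pseudocount (0.15), with no filter on low values (0.063), over 0 to 4 h (0.38) or with 1 slope per replicate number (0.29).

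The aspartate/glutamate carriers SLC25A12 and SLC25A13 serve the malate-aspartate shuttle and differed from each other in these libraries. The SLC25A13 conversion in replicates 1 and 2 of sgNT was 38.4% and 31.5% (0 h), 31.5% and 34.2% (1 h), 30.1% and 30.2% (2 h), 25.9% and 28.1% (4 h), 19.9% and 21.7% (8 h) and 15.1% and 18.3% (12 h). Values for SLC25A13 in sgCNOT3 were 10.95% and 18.2% (0 h), 12.6% and 14.03% (1 h), 15.2% and 12.4% (2 h), 8.55% and 8.39% (4 h), 10.5% and 8.399% (8 h) and 7.71% and 12.1% (12 h). SLC25A13 stood lower in sgCNOT3 at all 6 times without overlap, by a log2 difference of -1.28 ± 0.25 at 0 h (adjusted p = 0.0075) and -0.76 ± 0.25 at 12 h (adjusted p = 0.028). Its slopes were -0.088 and -0.049 per h, a difference of 0.039 ± 0.025 (SE; adjusted p = 0.27). SLC25A12 stood at 0.939% and 1.85% (sgNT) against 13.2% and 5.22% (sgCNOT3) at 12 h, a log2 difference of 2.38 ± 0.75 (adjusted p = 0.026) that was not past the test without the first library of either genotype at 12 h (adjusted p = 0.12 and 0.17). The difference between the 2 carriers was not tested. SLC25A15, SLC25A22 and SLC25A38, carriers of ornithine, glutamate and glycine, had slope differences of -0.0051, 0.023 and -0.012.

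**Figure D3:**
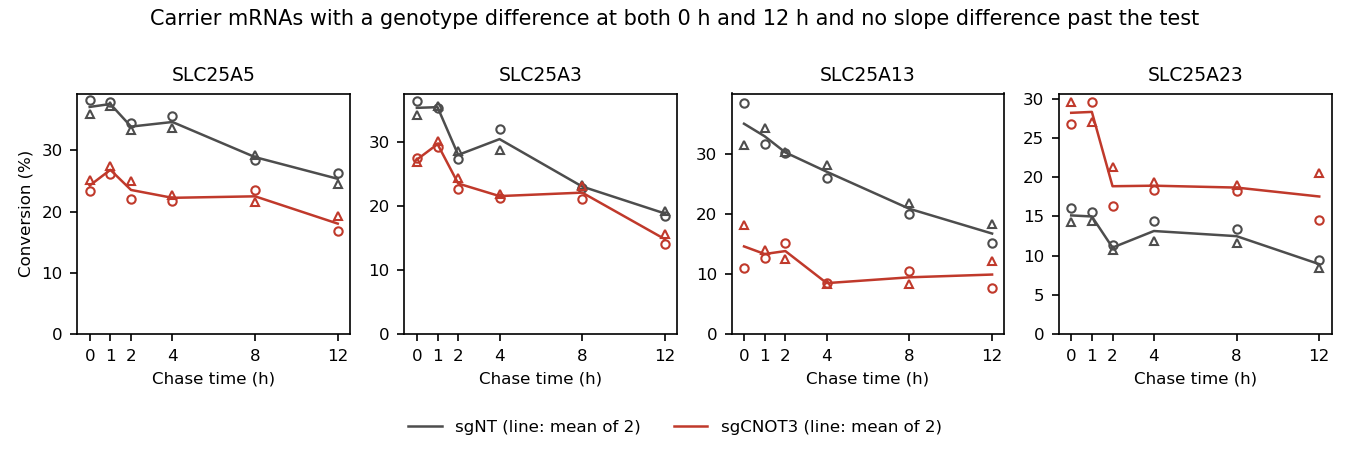
T-to-C conversion in percent against chase time in h for SLC25A5, SLC25A3, SLC25A13 and SLC25A23, which differed between genotypes at both 0 h and 12 h. Symbols are single libraries (circles replicate 1, triangles replicate 2), lines are means of 2, grey is sgNT and red sgCNOT3. At 0 h SLC25A23 was at 14.2% or more in sgNT and 26.8% or more in sgCNOT3, and SLC25A5 lay lower in sgCNOT3 (23.3% and 25.2%).

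No carrier of di- and tricarboxylates and none of the uncoupling protein relatives was past the slope test. The citrate carrier SLC25A1 was flat in both genotypes, at 7.35% to 10.0% in the 12 sgNT and 10.3% to 15.7% in the 12 sgCNOT3 libraries, with slopes of 0.0086 and 0.0087 per h. The oxoglutarate/malate carrier SLC25A11 had slopes of -0.066 and 0.0015 per h (adjusted p = 0.18). SLC25A10, the dicarboxylate carrier, and SLC25A21, which carries oxoadipate, had slope differences of 0.22 ± 0.12 and 0.050 ± 0.104. For SLC25A14, SLC25A30 and SLC25A27 the slope differences were -0.013, -0.043 and -0.19.

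SLC25A48 was the faster member, in the group whose roles are other or not settled. SLC25A48 (ENSG00000145832.16) lies on chromosome 5 at 135476913 to 135889770 on the plus strand. The SLC25A48 conversion in replicates 1 and 2 of sgNT was 15.8% and 9.68% (0 h), 11.7% and 16.5% (1 h), 17.8% and 3.53% (2 h), 5.48% and 14.8% (4 h), 5.505% and 12.2% (8 h) and 21.4% and 23.3% (12 h). Values for SLC25A48 in sgCNOT3 were 23.8% and 24.4% (0 h), 41.5% and 32% (1 h), 25% and 7.48% (2 h), 35.4% and 8.85% (4 h), 21.4% and 9.15% (8 h) and 10% and 0% (12 h). The genotypes were apart at 0 and 1 h with sgCNOT3 higher, overlapped at 2, 4 and 8 h, and were apart at 12 h with sgCNOT3 lower and 1 library listed at 0. The slope was 0.051 per h in sgNT and -0.28 in sgCNOT3, a difference of -0.33 ± 0.11 (SE; adjusted p = 0.034), with -0.12 and -0.55 by replicate. The call was lost without either sgNT library at 12 h (adjusted p = 0.087 and 0.10) or the second sgCNOT3 library at 12 h (0.19), and with no filter on low values. In the same group SLC25A45 had the lowest slope difference, -0.37 ± 0.19 (adjusted p = 0.17), SLC25A43 had 0.24 ± 0.16, SLC25A53 had 0.15 ± 0.13, and SLC25A16, SLC25A35 and SLC25A46 lay between -0.036 and 0.012.

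The genotypes were also compared at each chase time in a limma model of the 12 group means. Few members differed early, and most that did were lower in sgCNOT3. At 0 h, 1 member was higher (SLC25A23; 0.811% of all genes) and 4 were lower (SLC25A3, SLC25A4, SLC25A5 and SLC25A13; 10.8% of members, 4.09% of all genes). At 1 h, SLC25A23 was higher (background 0.923%) and SLC25A4, SLC25A5 and SLC25A13 were lower (2.45%). At 2 h and 4 h no member was higher (1.55% and 2.14% of all genes). SLC25A5 and SLC25A13 were lower at 2 h (2.48%), and SLC25A3 joined them at 4 h (5.34%).

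Late in the chase more members were higher in sgCNOT3, at shares near those of all genes. At 8 h, 7 members were higher (18.9%, background 18.9%), namely SLC25A17, SLC25A25, SLC25A26, SLC25A28, SLC25A35, SLC25A44 and SLC25A53, and SLC25A5 and SLC25A13 were lower (1.98%). At 12 h, 10 were higher (27.0%, background 31.8%) and 4 lower, namely SLC25A3, SLC25A5, SLC25A13 and SLC25A48 (10.8%, background 2.73%). The 10 higher were SLC25A4, SLC25A11, SLC25A12, SLC25A17, SLC25A23, SLC25A25, SLC25A26, SLC25A28, SLC25A32 and SLC25A36. The median log2 difference of members at 12 h was 0.38, beside 0.65 for all genes, and with centred libraries 3 members were higher and 11 lower at 12 h.

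Of the early calls, that of SLC25A5 at 0 h held without any single library. Those of SLC25A3 and SLC25A23 were lost without any one of the 4 libraries at 0 h (adjusted p = 0.088 to 0.23 and 0.075 to 0.14), that of SLC25A13 without the first library of either genotype (0.092 and 0.097) and that of SLC25A4 without either sgNT library or the first sgCNOT3 library (0.055 to 0.10). The 12 h calls of SLC25A17, SLC25A23, SLC25A25, SLC25A28, SLC25A32 and SLC25A36 (higher) and SLC25A5 (lower) held without any single library, and the calls of SLC25A4, SLC25A11, SLC25A12, SLC25A26, SLC25A3, SLC25A13 and SLC25A48 did not. Of the 8 h calls, higher or lower, only that of SLC25A25 held without any single library. Centring gave another order. At 0 h the calls of SLC25A4 and SLC25A13 stayed past the test (adjusted p = 0.044 and 0.038), and that of SLC25A5 did not (0.20). At 8 h the calls of SLC25A25 (higher) and of SLC25A5 and SLC25A13 (lower) stayed past it. At 12 h those of SLC25A25, SLC25A28 and SLC25A32 (higher) and of SLC25A3, SLC25A5, SLC25A13 and SLC25A48 (lower) stayed past it. Those of SLC25A17, SLC25A23 and SLC25A36 did not (0.54, 0.62 and 0.45). Neither did those of SLC25A4, SLC25A11, SLC25A12 and SLC25A26 (0.88, 0.34, 0.097 and 0.69).

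The change of the genotype difference between 0 h and 12 h was tested in the same model. It was past the test and above 0 in 6 members (SLC25A25, SLC25A28, SLC25A4, SLC25A32, SLC25A36 and SLC25A17), or 16.2%, beside 17.4% of all genes, and past the test and below 0 in none, beside 0.615%. The values ranged from 0.98 ± 0.14 in SLC25A17 to 3.88 ± 0.56 in SLC25A25 on the log2 scale. The median was 0.15 in members and 0.62 in all genes. At 0 h both sgCNOT3 libraries lay below both sgNT libraries in 10 members (27.0%, background 25.9%), 4 of them slower members (SLC25A4, SLC25A17, SLC25A25 and SLC25A28). Among all 2324 slower genes 47.0% had this order at 0 h, which is part of what the slope uses and no separate test. At 12 h both sgCNOT3 libraries lay above both sgNT libraries in 14 members (37.8%, background 51.9%).

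Half-lives were fitted as single exponentials with a limit of 24 h, and they describe how far the carriers spread. A fit was kept in both genotypes for 26 of 37 members. In sgNT the median was 7.55 h (quartiles 4.68 and 12.5 h) beside 5.80 h for all 7728 genes with kept fits, and in sgCNOT3 it was 8.33 h beside 7.497 h. The half-life was longer in sgCNOT3 in 15 members (57.7%; 60.3% of all genes), shorter in 9 and at the limit in both genotypes in 2. The median log2 ratio was 0.059 in members, 0.20 and -0.052 from the replicates alone, and 0.19 in all genes.

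The shortest half-lives in sgNT were those of SLC25A42 and SLC25A53. The SLC25A42 conversion in replicates 1 and 2 of sgNT was 32.7% and 40% (0 h), 22.03% and 38.2% (1 h), 11.4% and 17.9% (2 h), 18.2% and 31.2% (4 h), 6.71% and 3.51% (8 h) and 7.41% and 1.25% (12 h). Values for SLC25A42 in sgCNOT3 were 69.6% and 32.9% (0 h), 48.8% and 45.2% (1 h), 36.2% and 16.1% (2 h), 13.95% and 29.8% (4 h), 14.2% and 12.04% (8 h) and 9.86% and 7.62% (12 h). SLC25A42, the coenzyme A carrier, lost most conversion by 8 h in both genotypes, with a half-life of 3.46 h in sgNT and 3.47 h in sgCNOT3, the latter being 2.16 h and 6.89 h by replicate (log2 ratios -0.46 and 0.88). The SLC25A53 conversion in replicates 1 and 2 of sgNT was 46.8% and 58.7% (0 h), 45.5% and 80% (1 h), 32.6% and 38.1% (2 h), 41.9% and 17.6% (4 h), 1.45% and 0% (8 h) and 0% and 2.35% (12 h). Values for SLC25A53 in sgCNOT3 were 60% and 88.6% (0 h), 87.5% and 54.8% (1 h), 53.4% and 12.7% (2 h), 33.3% and 7.81% (4 h), 26.1% and 6.84% (8 h) and 4.396% and 0% (12 h). SLC25A53, a carrier whose substrate is not settled, was at or near 0 by 8 h in sgNT, and its half-lives were 3.65 h and 2.56 h, with log2 ratios of 0.48 and -1.61 in the replicates.

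At the other end SLC25A11 and SLC25A39 reached the limit of 24 h in both genotypes. The SLC25A39 conversion in replicates 1 and 2 of sgNT was 13.5% and 11.02% (0 h), 11.8% and 9.48% (1 h), 9.62% and 8.999% (2 h), 10.4% and 10.1% (4 h), 10.7% and 11.1% (8 h) and 9.97% and 9.34% (12 h). Values for SLC25A39 in sgCNOT3 were 12.6% and 10.7% (0 h), 9.85% and 11.6% (1 h), 10.3% and 10.4% (2 h), 9.33% and 10.03% (4 h), 10.5% and 11.2% (8 h) and 8.25% and 9.17% (12 h). SLC25A39, which imports glutathione, stayed between 8.25% and 13.5% in all 24 libraries, and its genotypes overlapped at 0, 1 and 8 h, with sgCNOT3 above at 2 h and below at 4 and 12 h. The SLC25A11 conversion in replicates 1 and 2 of sgNT was 13.7% and 11.9% (0 h), 18.3% and 14.7% (1 h), 11.8% and 11.3% (2 h), 15.7% and 12.6% (4 h), 10.8% and 7.66% (8 h) and 11.5% and 5.98% (12 h). Values for SLC25A11 in sgCNOT3 were 19.4% and 17.5% (0 h), 19.4% and 27.7% (1 h), 17.3% and 11.5% (2 h), 12.2% and 15.2% (4 h), 13.2% and 20.7% (8 h) and 22.5% and 17.2% (12 h). SLC25A11 was higher in sgCNOT3 without overlap at 0, 1, 8 and 12 h. SLC25A5 followed with 23.0 h in sgNT and SLC25A26 with 18.95 h, and both were at the limit in sgCNOT3.

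Of the 6 slower members, 3 had kept fits. SLC25A17 had half-lives of 8.37 h (sgNT) and 12.1 h (sgCNOT3), a log2 ratio of 0.53 (0.51 and 0.56 by replicate), and SLC25A36 had 4.50 h and 5.27 h (0.23, by replicate 0.04 and 0.53). SLC25A44 had 3.73 h and 5.03 h, but its log2 ratio was -0.19 in replicate 1 and 1.14 in replicate 2. The sgCNOT3 curves of SLC25A4, SLC25A25 and SLC25A28 did not follow a single exponential within the residual limit of 0.3, and no half-life is given for them. Among members without a slope call, SLC25A40 moved from 6.95 h to 2.86 h, though by -0.018 and -2.84 in the replicates, and SLC25A20 from 10.3 h to 22.6 h, by 0.71 and 1.34.

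**Figure D4:**
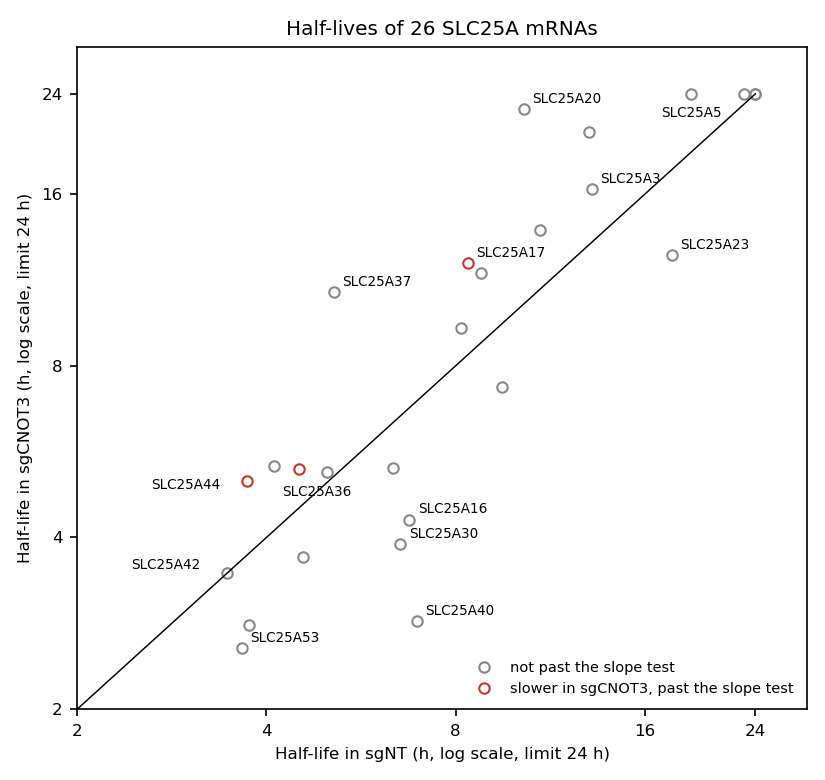
Half-life in sgCNOT3 against half-life in sgNT in h, both on log scales with a limit of 24 h, for the 26 SLC25A mRNAs with kept fits. The line marks equal half-lives, and red marks members slower in the slope test. SLC25A20 lies farthest above the line (10.3 h and 22.6 h), and SLC25A40 farthest below it (6.95 h and 2.86 h).

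Genes that act with the carriers were examined as 4 lists. The TIM22 import pathway, which inserts carriers into the inner membrane, had 7 slower genes of 10 tested and none faster, beside 21.7% and 0.345% of all genes. With centred libraries 3 of the 7 (TIMM22, TIMM9 and TIMM10B) were past the test. Over 0 to 8 h 3 genes were slower (TIMM9, TIMM10 and TIMM29), and 0 over 0 to 4 h or with 1 slope per replicate number. Without replicate 1 only 1 gene of the list was slower (TIMM10B), and without replicate 2 only 2 were (TIMM9 and TIMM29). With the larger pseudocount 4 were slower (TIMM10B, TIMM22, TIMM8A and TIMM9). The 7 were the translocase TIMM22 (slope difference 0.17 ± 0.03), its subunit TIMM29 (0.20 ± 0.06), the small chaperones TIMM9 (0.19 ± 0.03), TIMM10 (0.059 ± 0.019), TIMM10B (0.16 ± 0.03) and TIMM8A (0.11 ± 0.03), and the receptor TOMM70 (0.055 ± 0.020). The median slope difference of the list was 0.083, against 0.058 for all genes. The call of TOMM70 was the least secure (adjusted p = 0.049), and was lost when any one of 17 libraries was left out. That of TIMM29 was lost without the first sgNT library at 12 h (adjusted p = 0.11), and that of TIMM10 without either sgNT library at 12 h or the second sgCNOT3 library at 0 h (0.057 to 0.10).

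Of family members under other symbols, MTCH2, an outer membrane insertase, was slower (0.083 ± 0.023; lost without the second sgNT library at 12 h, adjusted p = 0.064), 1 of 3 tested. In the limma model of group means MTCH2 stood lower in sgCNOT3 at 0 h (log2 difference -1.35, adjusted p = 0.0019) and at 8 h (-0.65, 0.041). At 12 h it was still below sgNT (-0.41) but not past the test. Of 18 inner membrane transporters outside the family, 1 was slower, MICU2, a regulator of the calcium uniporter (0.090 ± 0.018), beside 21.7% of all genes. MICU2 also started lower in sgCNOT3 (-0.94 at 0 h, adjusted p = 0.0061 in the model of group means) and was not past that test at 12 h (0.35). The slope calls of MTCH2 and MICU2 were both lost without replicate 1, without replicate 2, over 0 to 8 h, over 0 to 4 h and with 1 slope per replicate number. None of the 3 outer membrane channels VDAC1, VDAC2 and VDAC3 was past the test, with slope differences between -0.027 and 0.020. None of the genes of the 4 lists was faster, but with centred libraries neither MTCH2 nor MICU2 was past the test, and 1, 2 and 1 genes of these last 3 lists were faster.

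The paper reports that loss of CNOT3 stabilized mRNAs rich in the arginine codons CGG, CGA and AGG. It used half-life changes and a score weighted by the enrichment of each codon in CNOT3-bound ribosomes. Here the codons were counted without weights in the coding sequences of the members and set beside slope differences, which is another measure. The median share was 2.96% of codons in the 41 members and 2.85% in all genes tested, and 22 members were above the latter. Codon shares of all genes tested refer to the 10625 that had a coding sequence. The share was 2.78% in the median slower member and 2.96% in the median other tested member. Over the 37 tested members the share and the slope difference had a Spearman rho of 0.10 and a Pearson r of 0.025, with no test, since the points share all libraries and their base composition. Among all genes tested the Spearman rho was 0.13. The arginine codons CGC, AGA and CGT made up 2.54% of codons in the median member and 2.64% in all genes.

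Single members lay at both ends of the codon scale. SLC25A28 had the largest share of the family (4.95%, above 89.7% of genes tested) and SLC25A25 had 4.27%, whereas SLC25A45, at 4.86%, was not past the slope test. SLC25A3 had the smallest share (0.831%), above 2.76% of genes, and SLC25A5 had 1.68%. The windows that follow show, for SLC25A25, SLC25A28 and SLC25A36 as slower members and SLC25A3 as the member with the smallest share, the first 20 codons in a row that hold the most of these codons, which are written in capitals. The windows come from 1 coding sequence per gene in GENCODE release 44 on GRCh38, and are written 5' to 3' on the coding strand.
SLC25A25: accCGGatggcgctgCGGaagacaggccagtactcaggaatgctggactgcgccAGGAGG
SLC25A28: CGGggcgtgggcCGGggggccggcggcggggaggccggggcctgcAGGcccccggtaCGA
SLC25A36: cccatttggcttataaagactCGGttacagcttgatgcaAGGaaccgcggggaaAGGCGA
SLC25A3: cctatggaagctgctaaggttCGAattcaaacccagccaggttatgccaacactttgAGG
The window of SLC25A25 covers codons 352 to 371 (chr9:128106362-128106421, plus strand), that of SLC25A28 codons 35 to 54 (chr10:99620174-99620233, minus strand), that of SLC25A36 codons 138 to 157 (chr3:140970953-140973734, plus strand, across an intron), and that of SLC25A3 codons 181 to 200 (chr12:98598603-98598662, plus strand). They hold 4, 4, 4 and 2 codons of the set. Genes and windows were chosen, each window for its count, so these counts do not compare slower with other members. Over the whole coding sequence SLC25A36 had a share of 2.57%, beside a median of 2.85% in all genes tested. The slower members without a window, SLC25A4, SLC25A17 and SLC25A44, had 2.68%, 2.61% and 2.87%.

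The paralogs SLC25A4 and SLC25A5 differ in codon choice, and both have 298 codons and share the same codon at 44.97% of positions. The carriers of ADP and ATP share a short signature of arginines and methionines, and the 12 codons that start with it are shown for the 3 members that have it, again with CGG, CGA and AGG in capitals.
SLC25A4: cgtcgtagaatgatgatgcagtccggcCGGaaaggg
SLC25A5: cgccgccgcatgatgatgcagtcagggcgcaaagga
SLC25A31: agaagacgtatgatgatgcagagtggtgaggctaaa
The windows lie at codons 235 to 246 of SLC25A4 (chr4:185145863-185145898, plus strand) and of SLC25A5 (chrX:119470477-119470512, plus strand), and at codons 247 to 258 of SLC25A31 (chr4:127768857-127773400, plus strand, across an intron). The window of SLC25A4 holds 1 codon of the set and those of SLC25A5 and SLC25A31 hold 0, while CGC, AGA and CGT make up 3, 4 and 3 of their codons. Over the whole coding sequence SLC25A4 has 8 codons of the set and SLC25A5 has 5. The slope differences were 0.14 in SLC25A4 and 0.011 in SLC25A5, and whether they depend on codon content was not tested. Both carriers had a smaller share of the set (2.68% and 1.68%) than the median of all genes tested (2.85%).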

How the data were processed

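SLAM-seq was performed in 24 libraries from sgNT and sgCNOT3 HEK293T cells, grouped by sample title. The authors deposited a single table in which every gene has 1 T-to-C conversion ratio per library, given as a fraction between 0 and 1. Per the paper's methods, 3' end reads were aligned to GRCh38. The submitters' notes list bcl2fastq, while aligner, conversion caller and annotation were not given in the sources used here, and depth is unknown.

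Conversion was tested as log2(conversion + pseudocount) by limma 3.58.1 in R 4.3.3 with trend, two-sided, at an adjusted p (Benjamini-Hochberg, all genes tested) of 0.05. Genotype, chase time and their interaction were the terms. The pseudocount of 0.34 percentage points equals 1% of the median starting conversion, and fold changes on this scale come out too small where values are low. Genes entered the test if above 0 in every 0 h library and in 20 or more of 24, or 10731 of 19798 genes (54.2%). Half-lives were limited to 24 h, and curves with a residual standard error over 0.3 were dropped. Codons and positions were taken from GENCODE release 44 (GRCh38), in which all 41 members were found by gene identifier, and this annotation may differ from the one behind the table.

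Members, roles and gene lists were chosen with earlier results of these data known. One gene is not reported here and enters no count of members. Every member could be named. Library values were given for members past the slope test, for ADP/ATP and phosphate carriers and for the 2 longest and 2 shortest sgNT half-lives, and genes of other lists were named when past the test, with the VDAC genes added as a list of 3. SLC25A13 and SLC25A23 were given in full after their values had been seen, because both differed at 0 h and 12 h. The scripts were tested on simulated data. Alternatives were other pseudocounts and filters, centred libraries, a replicate block, shorter chases and leaving out libraries. Python 3.11.15 was used for the remaining steps.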

Additional observations from a re-analysis of the deposited data

Results flagged for a closer look

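The genotype difference (sgCNOT3 minus sgNT, log2 conversion) differed between the start and the end of the chase in 6 members, by the limma test of the change from 0 h to 12 h. The change was 3.88 in SLC25A25 (adjusted p = 0.00029) and 3.02 in SLC25A28 (0.0045). It was 1.84 in SLC25A4 (0.0014), where the difference was -1.19 at 0 h and 0.65 at 12 h. Smaller changes were seen in SLC25A32 (1.28, 0.049), SLC25A36 (1.23, 0.014) and SLC25A17 (0.98, 0.00028).

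The test held without any single library in SLC25A4, SLC25A17, SLC25A25 and SLC25A28. In SLC25A32 it was lost when any one of 17 libraries was left out (adjusted p = 0.057 to 0.15), and in SLC25A36 without the first sgNT or the second sgCNOT3 library at 0 h or the second sgCNOT3 library at 12 h (0.052 to 0.073). With centred libraries the change remained past the test in SLC25A25 (3.18).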

How the results depend on the processing

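Depth is unknown, so values near 0 or 100%, as in SLC25A31, may rest on few reads. Within a chase time, replicate deviations of the 2 genotypes were hardly correlated (-0.038 to 0.021). This check cannot tell whether a replicate number was 1 guide or culture followed over the chase. If so, libraries of 1 replicate number are not independent, and the test on 1 slope per replicate number applies. A replicate block changed the counts of slope calls little (2325 genes slower, 33 faster, 6 and 1 members). It gave 9 members higher at 12 h and 5 with a higher change from 0 h, and lost TOMM70 (adjusted p = 0.053). With 1 slope per genotype and replicate number, limma called 0 genes and 0 members in either direction, with 2686 genes and 7 members at an unadjusted p under 0.05. In centred libraries 586 genes were slower and 654 faster, as were 2 and 5 members. SLC25A25 and SLC25A28 stayed slower and SLC25A48 faster, and the member median was -0.043. By time, centring left 0 members higher and 2 lower at 0 h, none (0 and 0) at 1 h, 0 lower at 2 h, 1 lower at 4 h, 1 higher at 8 h, 3 higher and 11 lower at 12 h, and 1 with a higher change from 0 h. Its slope differences were -0.060 in SLC25A3, -0.055 in SLC25A5, -0.027 in SLC25A13, -0.028 in SLC25A26, -0.010 in TOMM70 and -0.0068 in TIMM10. Over 0 to 8 h 1244 genes were slower and 24 faster, with 0 members faster, a member median of 0.027 and median half-lives of 9.21 h in sgNT and 9.36 h in sgCNOT3. SLC25A4 and SLC25A36 were not past the slope test over 0 to 8 h. Over 0 to 4 h 91 genes and 0 members were slower and 0 members faster, with a median of -0.037, and slope differences of -0.21 in SLC25A32, -0.028 in SLC25A17, -0.037 in SLC25A3, -0.085 in SLC25A13, -0.014 in SLC25A5, -0.014 in TIMM22 and -0.0071 in MTCH2. The member median was 0.025 with the smaller pseudocount and 0.013 with the larger, at which 20 genes were faster and 1 member higher at 4 h. Either gave 1 member higher at 2 h. Without a filter, or with members above 0 in all 24 libraries, 0 members were faster. A log-linear fit gave medians of 6.14 h (sgNT) and 6.37 h (sgCNOT3). Without the residual filter the sgCNOT3 median was 10.8 h. Leaving out both sgCNOT3 libraries at 2 h, an alternative chosen after seeing the data, gave 2 members faster (SLC25A40 and SLC25A48) and a median of 0.028.

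Leaving out single libraries or a replicate number gave 426 to 2545 genes slower and 1 to 49 faster, 1 to 7 members slower, 0 to 2 faster and member medians of 0.0077 (without the second sgNT library at 12 h) to 0.032. Higher members numbered 0 to 1 from 0 h to 4 h, 3 to 8 at 8 h and 8 to 10 at 12 h. Lower members numbered 1 to 4 (0 h), 0 to 3 (1 h), 0 to 4 (2 h), 2 to 4 (4 h), 0 to 2 (8 h) and 1 to 4 (12 h). Members with a higher change from 0 h numbered 4 to 6 and with a lower one 0 to 1. Median half-lives were 6.97 h to 8.69 h in sgNT and 8.04 h to 8.43 h in sgCNOT3, with log2 ratios of -0.052 to 0.20. The slope difference of SLC25A23 was -0.021 to 0.013, and the log2 half-life ratio of SLC25A44 -0.19 to 1.14. Without replicate 1 or 2, 3 and 1 members were slower. The cause of these shifts was not tested. Of 30 members not past the test, 26 changed sign under some alternative and 7 passed under at least 1.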
